A study of Mus musculus with 35 samples.

Results

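The secretoglobins of club cells are described here over a series of whole mouse lungs injured with naphthalene. They are 3 of the 57186 genes in the deposited table, taken by their gene symbols Scgb1a1, Scgb3a1 and Scgb3a2, and all 3 passed the filter on low counts. Secretoglobins are small secreted proteins of mucosal surfaces. In the mouse airway they are made mainly by club cells, the dome-shaped secretory cells of the airway lining, and Scgb1a1 is the usual marker of that cell. Naphthalene injures club cells because their cytochrome P450 Cyp2f2 turns it into reactive products, and surviving cells then repopulate the airway. Scgb1a1 encodes the club cell secretory protein, also called uteroglobin. Scgb3a2 (also UGRP1) is a target of the lung transcription factor NKX2-1 and an early marker of secretory airway cells, and Scgb3a1 (also HIN-1) is known chiefly from larger airways.

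The series holds 35 libraries in 12 groups. Mice were of the KO genotype RORaf/fIl7riCre, in which Cre from the Il7r locus acts on a floxed Rora gene, or of the control genotype RORaf/f, and lungs were taken 2, 5 or 7 days after naphthalene or from untreated mice with the same day label. Each group had 3 libraries, except KO mice at day 7 after naphthalene with 2. The mice were 14 days old by the series design, which gives no separate age for each day label. The control label names no Cre, so the loss of RORa and the Cre at Il7r cannot be told apart. Il7r is active mainly in lymphoid cells. Nothing in the labels says how mice were split over litters or cages, and each library was taken as 1 mouse.

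Libraries held 10696690 to 21062713 counts (median 16159028), and the 3 secretoglobins together took 0.0409% to 1.66% of a library. Expression is given as CPM (counts scaled to a common library total) after TMM scaling, and comparisons as log2 changes with their standard error (SE) from edgeR's quasi-likelihood test on all 20606 genes that passed the filter. A gene counts as called where the p adjusted by Benjamini-Hochberg over those genes was under 0.05. Rora itself, the floxed gene, averaged 35.1 to 57.6 CPM in the KO groups and 36.3 to 47.7 CPM in the control groups and was called in no genotype comparison, so these whole-lung counts give no check of the deletion. In such bulk samples fewer club cells and less RNA per club cell cannot be told apart. Library names carry a letter, which the labels do not explain. At days 2 and 5 no letter is shared by treated and untreated mice, so treatment and letter cannot be told apart there, while all 11 libraries of day 7 share 1 letter.

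Scgb1a1 (ENSMUSG00000024653) fell after naphthalene on all 3 days and stayed the lowest relative to untreated lungs. At day 2 the naphthalene-treated KO lungs had 395, 417 and 465 CPM, against 5199, 5846 and 8639 CPM in untreated KO lungs. Treated control lungs had 740, 574 and 376 CPM, against 6863, 7560 and 6124 CPM in untreated control lungs. The treated and untreated values lay far apart in both genotypes, and the treated mean was 6.49% of the untreated mean in KO mice and 8.23% in control mice. The log2 change over both genotypes was -3.77 ± 0.21 (SE, adjusted p = 6.03e-14), the fifth largest decrease of the genes tested.

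At day 5 treated KO lungs had 1842, 1721 and 1823 CPM of Scgb1a1, against 7688, 8388 and 9112 CPM in untreated KO lungs. In control mice the treated lungs had 1805, 2489 and 1892 CPM, against 9134, 6745 and 10212 CPM in untreated control lungs. The treated mean had reached 21.4% of the untreated mean in KO mice and 23.7% in control mice, with no overlap between treated and untreated libraries, which held for 1.24% of all genes as lower in both genotypes. The log2 change over both genotypes was -2.15 ± 0.19 (SE, adjusted p = 1.31e-08).

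At day 7 treated KO lungs had 3719 and 2461 CPM of Scgb1a1, against 9933, 10474 and 17058 CPM in untreated KO lungs. Treated control lungs had 6733, 4803 and 3387 CPM, against 16758, 11624 and 16536 CPM in untreated control lungs. Values still did not overlap (0.277% of all genes were lower in this way in both genotypes), and the treated mean was 24.7% of the untreated mean in KO mice and 33.2% in control mice. The log2 change over both genotypes was -1.80 ± 0.21 (SE, adjusted p = 3.83e-06) and was called without any 1 of the 11 libraries, at -1.96 to -1.67. Within 1 genotype it was -2.01 ± 0.32 in KO mice (adjusted p = 0.00161) and -1.59 ± 0.27 in control mice (adjusted p = 0.00568). The control call was lost without treated control replicate 2 (-1.57, adjusted p = 0.117), treated control replicate 3 (-1.37, adjusted p = 0.175) or untreated control replicate 1 (-1.50, adjusted p = 0.0742), and the KO call without treated KO replicate 2 (-1.76, adjusted p = 0.15).

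Scgb3a2 (ENSMUSG00000038791) also fell at day 2, but by day 5 its mean stood above that of untreated lungs. At day 2 treated KO lungs had 48.9, 95.1 and 51.0 CPM, against 245, 407 and 559 CPM in untreated KO lungs. In control mice the treated lungs had 177, 113 and 34.5 CPM, against 412, 443 and 350 CPM in untreated control lungs. The groups did not overlap in either genotype, as for Scgb1a1 and for 2.77% of all genes tested, which were lower without overlap in both genotypes. The treated mean was 16.1% of the untreated mean in KO mice and 26.9% in control mice, and the log2 change over both genotypes was -2.26 ± 0.26 (SE, adjusted p = 2.13e-07).

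At day 5 treated KO lungs had 705, 735 and 539 CPM of Scgb3a2, against 396, 383 and 464 CPM in untreated KO lungs. Treated control lungs had 702, 887 and 690 CPM, against 333, 379 and 600 CPM in untreated control lungs. Every treated library lay above every untreated library of its genotype, which held for 2.38% of all genes in both genotypes, and the treated mean was 159% of the untreated mean in KO mice and 174% in control mice. The log2 change of 0.73 ± 0.25 (SE) was not called over both genotypes (adjusted p = 0.0648). It was called with DESeq2 (0.74, adjusted p = 0.0357), in a fit of the 4 compared groups alone (0.74, adjusted p = 0.0223) and without untreated control replicate 3 (0.89, adjusted p = 0.0218). With a term for the letters that split groups it was 0.58 ± 0.29 (adjusted p = 0.372), on a day when letter and treatment are confounded.

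At day 7 treated KO lungs had 1117 and 828 CPM of Scgb3a2, against 456, 509 and 624 CPM in untreated KO lungs. In control mice the treated lungs had 1239, 1317 and 825 CPM, against 783, 514 and 717 CPM in untreated control lungs. Again no libraries overlapped within a genotype, as in 1.42% of all genes higher in both genotypes, at 184% of the untreated mean in KO mice and 168% in control mice. The log2 change of 0.81 ± 0.26 (SE) was not called over both genotypes (adjusted p = 0.300, unadjusted p = 0.00386).

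Scgb3a1 (ENSMUSG00000064057) varied most between mice. At day 2 treated KO lungs had 7.36, 17.1 and 3.92 CPM, against 24.7, 68.1 and 95.5 CPM in untreated KO lungs. Treated control lungs had 68.7, 37.6 and 7.68 CPM, against 54.0, 56.5 and 89.3 CPM in untreated control lungs. Treated and untreated values overlapped in control mice and not in KO mice, where 8.41% of all genes were lower without overlap. Over both genotypes the log2 change was -1.77 ± 0.45 (SE, adjusted p = 0.00974). In KO mice alone it was -2.73 ± 0.66 (adjusted p = 0.0199), a call lost without treated KO replicate 1 (-2.58, adjusted p = 0.109) or 3 (-2.36, adjusted p = 0.155), or untreated KO replicate 2 (-2.67, adjusted p = 0.0668) or 3 (-2.30, adjusted p = 0.121). In control mice it was -0.81 ± 0.61 and not called (adjusted p = 0.676). The KO minus control difference of these 2 effects was -1.92 ± 0.88 (SE) and not called (adjusted p = 0.99996).

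At day 5 treated KO lungs had 214, 148 and 71.7 CPM of Scgb3a1, against 47.5, 78.4 and 97.6 CPM in untreated KO lungs. Treated control lungs had 92.6, 87.8 and 113 CPM, against 113, 133 and 140 CPM in untreated control lungs. The treated mean was above the untreated mean in KO mice and below it in control mice, and neither difference was called. The KO minus control difference of these 2 effects was 1.35 ± 0.86 (SE) and not called (adjusted p = 0.636). The log2 change over both genotypes was 0.28 ± 0.43 (SE, adjusted p = 0.709). At day 7 treated KO lungs had 137 and 86.4 CPM, against 115, 47.6 and 198 CPM in untreated KO lungs, and treated control lungs had 460, 282 and 219 CPM, against 203, 97.7 and 370 CPM in untreated control lungs. The groups overlapped in both genotypes, with a log2 change of 0.21 ± 0.45 (SE, 95% interval -0.72 to 1.13, adjusted p = 0.9998).

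**Figure D1:**
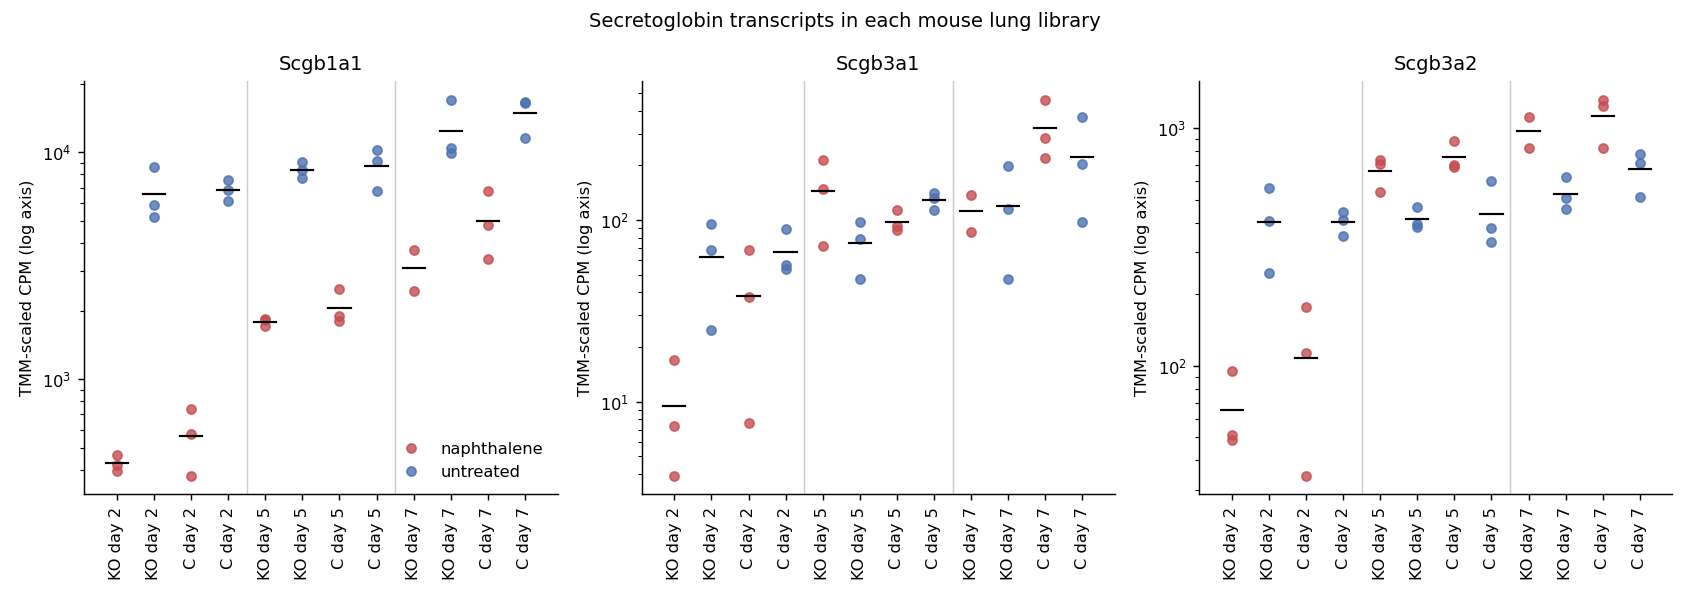
CPM of Scgb1a1, Scgb3a1 and Scgb3a2 (log axis) in each library, by genotype (KO, then control, C) and day, with naphthalene-treated mice in red, untreated mice in blue and the group mean as a black bar. Scgb1a1 of treated mice lies below that of untreated mice on every day. Scgb3a2 of treated mice lies below at day 2 and, within each genotype, above at days 5 and 7, where the difference was not called over both genotypes.

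At day 2 all 3 secretoglobins were called lower over both genotypes, beside 4.3% of all genes tested called lower and 9.9% called in either direction. At day 5 Scgb1a1 alone of the 3 was called lower, beside 2.82% of all genes called lower and 7.16% called in either direction. At day 7 it was again Scgb1a1 alone, beside 0.0388% of all genes called lower and 0.374% in either direction. Within 1 genotype the calls at day 2 were 3 of 3 in KO mice (2.74% of all genes) and 2 of 3 in control mice (3.76% of all genes). Within 1 genotype Scgb1a1 alone was called at day 5 (KO 1.32%, control 2.39% of all genes) and at day 7 (KO 0.0728%, control 0.0388% of all genes). The median log2 change of all genes lay between -0.04 and 0.02 in these comparisons, so the scaling placed the bulk of genes near 0. The plot of treated levels as a percent of untreated levels sets the 3 genes side by side.

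**Figure D2:**
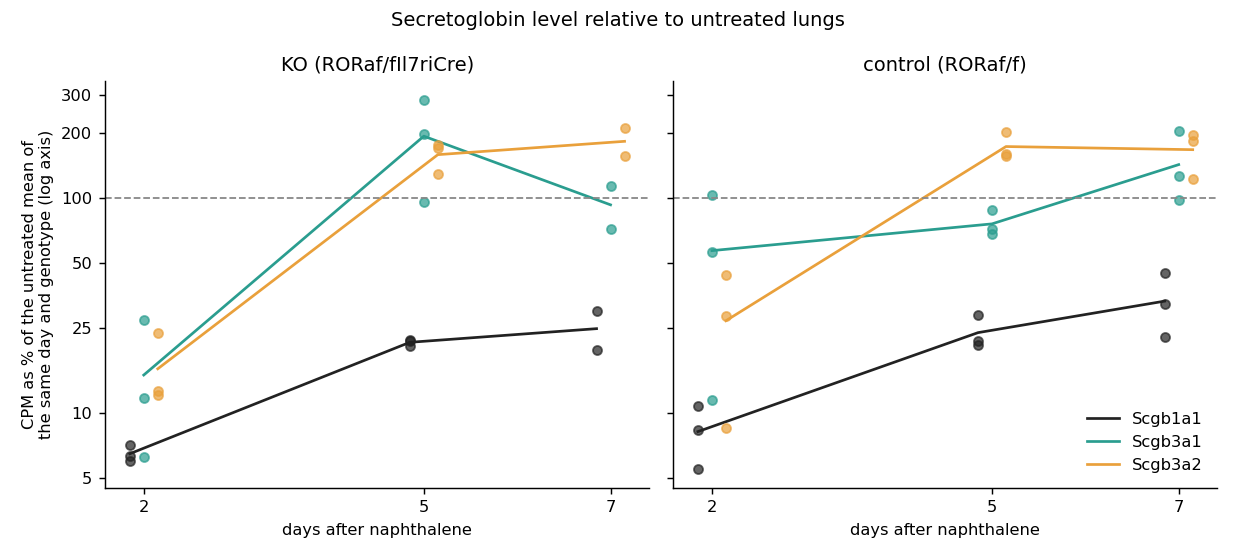
CPM of each treated library as a percent of the mean of untreated lungs with the same day and genotype (log axis), for KO mice on the left and control mice on the right. Points are libraries and lines join the means of days 2, 5 and 7. The dashed line at 100% is the untreated mean, and Scgb1a1 stays below it, ending at 24.7% in KO mice and 33.2% in control mice, while Scgb3a2 ends at 184% and 168%.

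The recovery of each gene was tested as the difference between the naphthalene effects of 2 days, each against untreated lungs of its own day. From day 2 to day 5 the naphthalene effect of Scgb1a1 became less negative, by 1.62 ± 0.26 on the log2 scale (SE, adjusted p = 0.000977). That of Scgb3a2 moved up by 3.00 ± 0.36 (adjusted p = 7.07e-06), to a value above 0. For Scgb3a1 it moved by 2.05 ± 0.62 and was not called (adjusted p = 0.117), though it was without treated KO replicate 2 of day 2 (2.42, adjusted p = 0.0366). These 2 called genes stand beside 0.67% of all genes called. Between days 5 and 7 edgeR called 0 of 20606 genes (0%) for this difference, with 1378 at an unadjusted p under 0.05 and 0 by DESeq2. The values there were 0.35 for Scgb1a1, 0.08 for Scgb3a2 and -0.07 for Scgb3a1, whose sign reversed to 0.018 without TMM scaling. From day 2 to day 7 the effect moved by 1.97 ± 0.27 for Scgb1a1 (adjusted p = 0.00015), 3.08 ± 0.36 for Scgb3a2 (adjusted p = 3.14e-05) and 1.98 ± 0.63 for Scgb3a1 (adjusted p = 0.161), beside 1.01% of all genes called.

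The untreated level that recovery is read against was itself not constant. Mean Scgb1a1 of untreated lungs of both genotypes was 6705 CPM at day 2, 8547 CPM at day 5 and 13731 CPM at day 7. The day 7 level was higher than that of day 2 by 1.03 ± 0.19 on the log2 scale (SE, adjusted p = 0.000488) and higher than that of day 5 by 0.68 ± 0.19 (adjusted p = 0.009996). The second of these was lost without untreated KO replicate 3 of day 7 (0.54, adjusted p = 0.0546). Untreated Scgb3a1 was higher at day 7 than at day 2 by 1.34 ± 0.43 (adjusted p = 0.0384), a call lost without KO replicates 1 or 2 or control replicates 1, 2 or 3 of day 2, or without KO replicate 3 or control replicates 1 or 3 of day 7 (1.04 to 1.48 and adjusted p = 0.0512 to 0.143, each left out in turn). Untreated Scgb3a2 differed by 0.57 ± 0.25 (adjusted p = 0.123). Of all genes, 13.8% were called between untreated day 7 and day 2, 21.6% between day 7 and day 5, and 0.476% between day 5 and day 2, where none of the 3 was called. These untreated groups also differ in the letter of the library name, so day and letter cannot be told apart.

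Because 2 genes counted in 1 library share its depth, their ratio needs no scaling between libraries. In naphthalene-treated lungs of day 2, Scgb3a2 counts stood at 15.4% ± 6.5 of Scgb1a1 counts in KO mice and 17.6% ± 7.6 in control mice, against 6.05% ± 1.2 in untreated KO mice and 5.86% ± 0.14 in untreated control mice (SD, n = 3 each). At day 5 the ratio was 36.9% ± 6.7 and 37.0% ± 1.7 in treated KO and control mice, against 4.94% ± 0.32 and 5.05% ± 1.2 in untreated KO and control mice (SD, n = 3 each). At day 7 it was 31.8% ± 2.5 (n = 2) and 23.4% ± 4.6 (n = 3) in treated KO and control mice, against 4.37% ± 0.63 and 4.48% ± 0.17 in untreated KO and control mice (SD, n = 3 each). Every treated library lay above every untreated library of the same day.

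The mean log2 ratio of Scgb3a2 to Scgb1a1 was higher in treated than in untreated mice by 1.38 at day 2, 2.90 at day 5 and 2.62 at day 7 (exact two-sided permutation test within genotypes, p = 0.005 each, the smallest this design gives, and adjusted p = 0.009 over 9 tests). Scgb3a1 also gained on Scgb1a1, by 1.77 at day 2 (exact permutation p = 0.015, adjusted 0.0225), 2.39 at day 5 and 2.18 at day 7 (exact permutation p = 0.005 and adjusted 0.009 for each). Day 2 of that pair was lost without treated KO replicate 2 (1.48, adjusted p = 0.06), untreated control replicate 1 (1.70) or 2 (1.68), both with adjusted p = 0.0525, or untreated KO replicate 1 (1.56, adjusted p = 0.06), all by the same exact test. The ratio of Scgb3a1 to Scgb3a2 did not differ detectably, at 0.38 at day 2 (exact p = 0.26), -0.51 at day 5 (exact p = 0.175) and -0.44 at day 7 (exact p = 0.32). Within 1 genotype this change was -0.15 in KO and 0.92 in control mice at day 2. It was 0.22 and -1.23 at day 5, and -0.79 and -0.09 at day 7. Treated and untreated control libraries of day 5 did not overlap (exact p = 0.1, the smallest for 3 against 3). The difference between genotypes in this ratio was not tested on any day. A ratio shows that the genes changed unequally and not which of them moved.

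**Figure D3:**
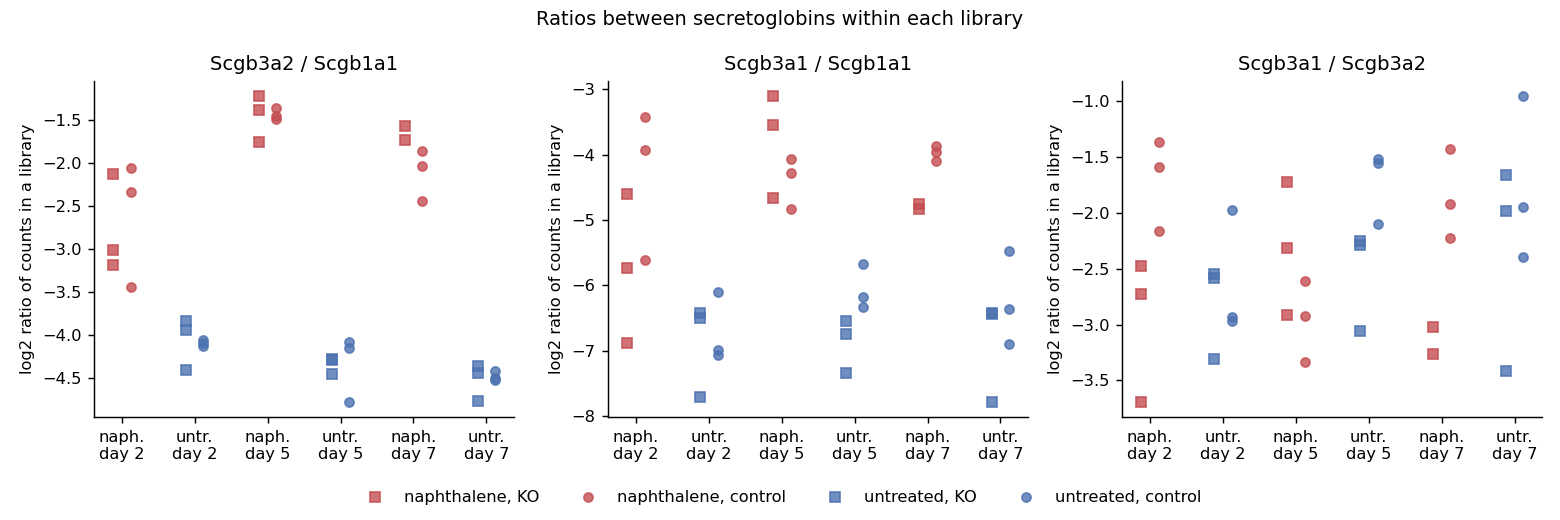
Log2 ratio of counts of 2 secretoglobins in the same library, by day, with treated mice (red) left of untreated mice (blue), squares for KO and circles for control mice. Ratios of Scgb3a2 to Scgb1a1 do not overlap between treated and untreated mice on any day. Those of Scgb3a1 to Scgb1a1 overlap at day 2 and not at days 5 and 7, and those of Scgb3a1 to Scgb3a2 overlap on each day over both genotypes.

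In lungs of untreated control mice of day 2, reads per kilobase of annotated exon sequence put Scgb1a1 at 14389 CPM per kilobase, Scgb3a2 at 457 and Scgb3a1 at 111. At day 7 untreated control lungs had 31455, 763 and 374 CPM per kilobase of the same genes. On this scale Scgb1a1 led by far in every control group, and in treated control lungs of day 2 it had 1184 CPM per kilobase, against 123 for Scgb3a2 and 63.5 for Scgb3a1. Exon lengths came from GENCODE M21, an annotation of an earlier build than the GRCm39 named by the submitters. Scgb1a1 ranked 4 by mean CPM among the genes, Scgb3a2 ranked 208 and Scgb3a1 ranked 1868. Counts were ample for each gene, the lowest being 67 counts of Scgb3a1 (3.92 CPM, exact Poisson interval 3.04 to 4.98, for counting error only) in treated KO replicate 3 of day 2.

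None of the 3 secretoglobins was called in any genotype comparison. edgeR called 0 of 20606 genes (0%) in each of the 6 comparisons of KO with control mice, in their mean and in the 3 tests of whether genotype changed the naphthalene effect. In these tests 371 to 3084 genes had an unadjusted p under 0.05. DESeq2 called 1 gene in treated mice of day 5 and 25 in untreated mice of day 5, and 0 in the other comparisons. In untreated mice of day 5 edgeR called 197 genes without control replicate 3 and 39 without control replicate 2, and in treated mice of that day 3 without KO replicate 1. A fit of the 2 compared groups alone called 86 genes in treated mice of day 2 and 2 in untreated mice of day 5, the secretoglobins not among them. The mean KO minus control log2 difference over the 6 combinations was -0.28 for Scgb1a1 (95% interval -0.50 to -0.06, adjusted p = 0.299), -0.79 for Scgb3a1 (-1.31 to -0.26, adjusted p = 0.299) and -0.26 for Scgb3a2 (-0.56 to 0.04, adjusted p = 0.375). All 3 means were below 0, and the intervals do not show equality of the genotypes. The largest single difference was that of Scgb3a1 in treated mice of day 2, at -2.01 ± 0.65 (SE, adjusted p = 0.756), with 7.36, 17.1 and 3.92 CPM in KO and 68.7, 37.6 and 7.68 CPM in control lungs, whose values overlap. In treated mice of day 7 Scgb3a1 had 86.4 to 137 CPM in KO and 219 to 460 CPM in control mice. That difference was -1.52 ± 0.71 (SE) and not called (adjusted p = 0.696). In untreated mice of day 5 it had 47.5 to 97.6 and 113 to 140 CPM, at -0.79 ± 0.61 (SE, adjusted p = 0.655). In treated mice of day 5 the Scgb3a1 difference was above 0, at 0.56 ± 0.60 (SE).

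**Figure D4:**
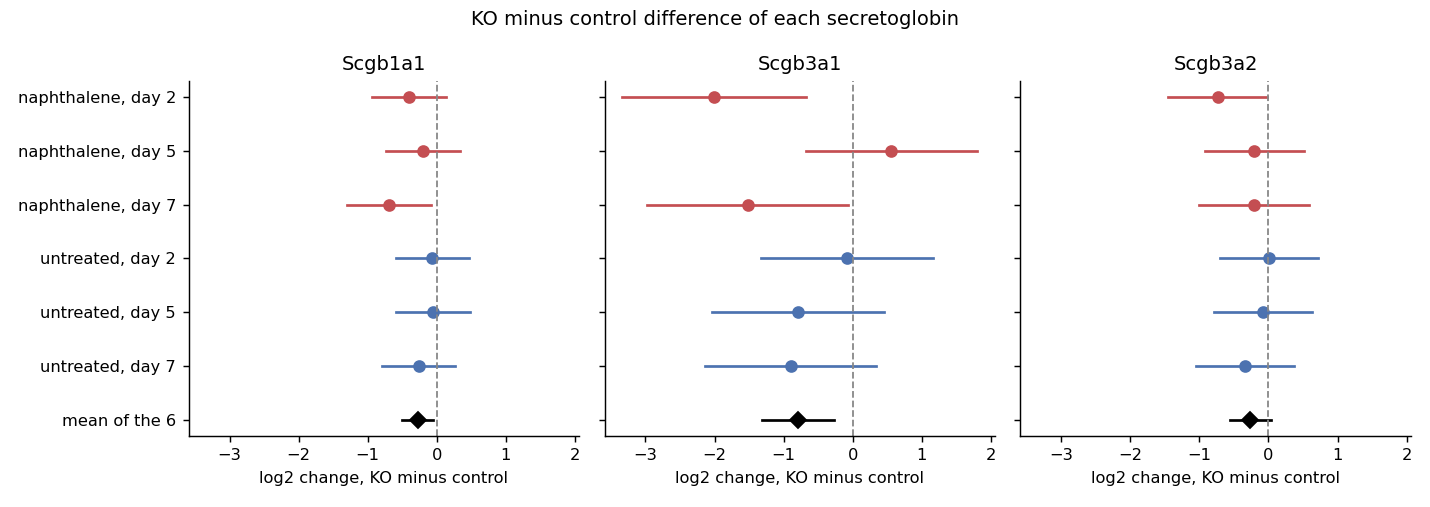
Log2 difference KO minus control for each secretoglobin, with 95% interval, in treated (red) and untreated (blue) mice of each day and as the mean of the 6 comparisons (black). None was called at an adjusted p under 0.05, and Scgb3a1 has the widest intervals.

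The other club cell genes did not all follow Scgb1a1. Of 20 listed club cell genes 19 were tested, and at day 2 over both genotypes 3 rose and 6 fell, with a median log2 change of 0.02 beside -0.04 for all genes. Of all genes 5.6% rose and 4.3% fell on that day, 4.34% rose and 2.82% fell at day 5, and 0.335% rose and 0.0388% fell at day 7. Cyp2f2, the P450 that activates naphthalene, fell by 1.54 on the log2 scale (169.6 CPM in treated and 497.1 CPM in untreated lungs, adjusted p = 1.39e-06), less than Scgb1a1. At day 5 Cyp2f2 had 421 CPM in treated and 548 CPM in untreated lungs and was not called (adjusted p = 0.203). At day 7 it had 456 CPM in treated and 760 CPM in untreated lungs, a log2 change of -0.84 that was not called (adjusted p = 0.0699). At day 5, 2 of the listed club cell genes rose and 2 fell, with a median of -0.09, among them Hp, the haemoglobin-binding haptoglobin (0.71), and Aox3, an aldehyde oxidase (-0.78), and at day 7, 0 rose and 1 fell, with a median of -0.24. Cyp2b10, another P450, was higher at day 2 by 1.88 (adjusted p = 1.14e-06) and at day 5 by 0.99 (adjusted p = 0.00804). Cbr2, a carbonyl reductase, had the highest CPM of the list, with 1319 CPM in treated and 1705 CPM in untreated lungs at day 2 (adjusted p = 0.180).

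Genes of secretory and host-defence cells of the larger airway formed a second list of 12. At day 2, 3 rose and 3 fell, with a median of -0.75 beside -0.04 for all genes. Those that fell were Tff2, a trefoil peptide of mucus (0.358 CPM in treated and 6.84 CPM in untreated lungs, adjusted p = 4.42e-05), Clca1, a secreted protein of goblet cells (0.277 CPM in treated and 5.40 CPM in untreated lungs, adjusted p = 0.0337), and Pigr, the polymeric immunoglobulin receptor (0.764 CPM in treated and 1.58 CPM in untreated lungs, adjusted p = 0.0447). At day 5, 4 rose and 0 fell, with a median of 1.35 beside -0.02. At day 7 again 4 rose, with a median of 1.18 beside -0.01. Agr2, a protein disulfide isomerase of mucus-producing cells, was higher at all 3 days, at 2.34, 3.32 and 2.51, and had 4.89 CPM in treated and 0.478 CPM in untreated lungs at day 5. Ltf, which encodes lactoferrin, was higher by 1.61, 1.48 and 1.48. Muc5b, a gel-forming mucin, had the highest mean CPM of the list, with 36.9 CPM in treated and 17.1 CPM in untreated lungs at day 5, and was not called (adjusted p = 0.119). Muc5ac, another gel-forming mucin, was higher at day 7 by 2.16 (adjusted p = 0.00523).

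**Figure D5:**
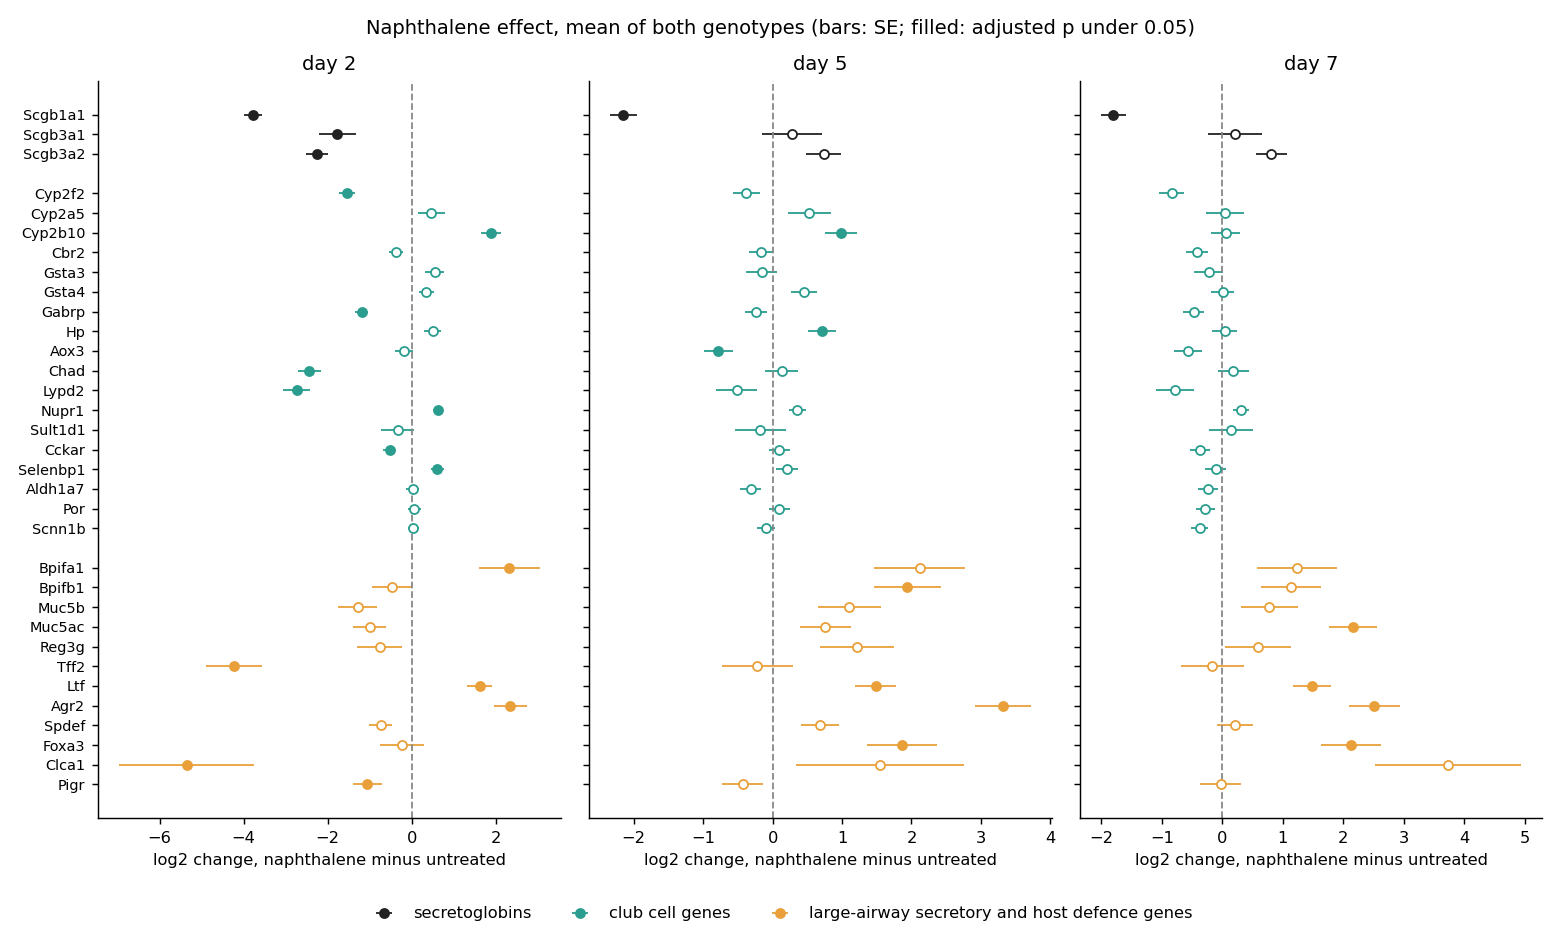
Log2 change of naphthalene-treated against untreated lungs over both genotypes, with SE, for the 3 secretoglobins, club cell genes and the large-airway genes at days 2, 5 and 7. Filled points were called at an adjusted p under 0.05, and of the 3 secretoglobins Scgb1a1 remains low at day 7.

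Transcription factors known to act on secretoglobin genes were also counted. Over both genotypes 5.6%, 4.34% and 0.335% of all genes rose at days 2, 5 and 7, with medians of -0.04, -0.02 and -0.01. Of 8 factors tested, 2 rose at day 2 and at day 5, and 0 were called at day 7 (medians 0.10, 0.25 and -0.08). The 2 were Elf3, an epithelial ETS factor, with 0.51 and 0.48, and Sox2, the airway progenitor factor, with 0.54 and 0.56. Nkx2-1, the factor that drives Scgb3a2 and Scgb1a1, was among those with the highest CPM and was called at no day, with log2 changes of -0.03, -0.16 and -0.08. Of 4 reported binding partners of secretoglobins, 2 rose at day 2, 3 at day 5 and 1 at day 7 (medians 0.66, 0.91 and 0.11), beside the same shares of all genes. Lrp2, the megalin receptor of uteroglobin, rose on all 3 days by 0.66, 1.10 and 0.89, and Marco, a macrophage receptor reported for Scgb3a2, rose by 0.79 and 0.88 at days 2 and 5. The table holds 67 further genes named Scgb, of which 59 had 0 counts in all libraries. Of the 67, 1 gene, Scgb1c1, passed the filter, at 3.56 to 7.91 CPM by group, and was called in no naphthalene or genotype comparison. Untreated lungs had 4.04 CPM of Scgb1c1 in KO and 3.94 CPM in control mice at day 2. At day 7 they had 7.01 and 7.91 CPM, and calls between untreated days are not given here for this gene.

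The RefSeq promoter table of GRCm38.p6 matched 1 of the 3 secretoglobins, Scgb3a1, and upstream sequence of Scgb1a1 and Scgb3a2 was not analysed here. The 250 bases before the start of Scgb3a1 (chr11:49663345-49663594, plus strand) are shown because the transcription factors above bind such sequence.
Scgb3a1 upstream: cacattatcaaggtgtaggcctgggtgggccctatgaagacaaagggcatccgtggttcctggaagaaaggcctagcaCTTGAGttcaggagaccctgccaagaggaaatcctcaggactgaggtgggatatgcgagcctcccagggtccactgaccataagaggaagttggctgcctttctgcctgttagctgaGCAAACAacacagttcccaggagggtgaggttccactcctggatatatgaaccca
Capitals mark the matches on either strand of CTCAAG, the core bound by NKX2-1, read here as CTTGAG, 172 bases before the start, and of TGTTTGC, a forkhead motif, read as GCAAACA, 55 bases before it. Of 32851 RefSeq promoters with this 250-base window, 13.3% hold the first and 4.3% hold the second. TGTTTAC, TTNNGCAA (C/EBP) and TATAAA were not found in these letters, and 3.17%, 9.56% and 12.4% of all promoters hold them. The matches are a description of the letters.

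Markers of several other cell types moved with treatment, and those of others had few calls. Beside the counts below, 5.6% of all genes were called higher and 4.3% lower at day 2. These shares were 4.34% and 2.82% at day 5, and 0.335% and 0.0388% at day 7. Ciliated cell markers (9 tested, summed CPM) were 947 to 1222 in treated and 620 to 819 in untreated lungs at day 2, with 7 of 9 higher, 6 of 9 at day 5 and 3 of 9 at day 7. Epithelial markers (5 tested) were 533 to 753 in treated and 249 to 394 in untreated lungs at day 2, with 4 of 5 higher at days 2 and 5 and 0 at day 7. Basal cell markers had 4 of 7 higher at day 2, 1 at day 5 and 0 at day 7. At day 2, 2 of the 7 had a log2 change below 0. They summed to 5.52 to 10.7 CPM in treated and 2.78 to 4.45 CPM in untreated lungs at day 2. Of the 7, 5 averaged under 1 CPM over all libraries. Krt5, a defining marker, had 1.09 CPM in treated and 0.0827 CPM in untreated lungs at day 2. Alveolar type 2 markers had 5 of 8 higher at day 5. Neuroendocrine markers had 2 of 4 higher and 1 lower at day 2, summing to 10.3 to 14.99 CPM in treated and 4.78 to 9.23 CPM in untreated lungs. Red cell markers had 3 of 6 lower at day 2, with a median log2 change of -0.9998, and summed to 1707 to 3030 CPM in treated and 2963 to 5128 CPM in untreated lungs. Airway cartilage, which would mark lungs cut with more large airway, had 0 of 5 called on any day. It summed to 14.4 to 24.5 CPM in treated and 11.6 to 25.7 CPM in untreated lungs at day 2. Below 0 were 4 of the 5 at day 2, 5 at day 5 and 3 at day 7 (medians -0.51, -0.40 and -0.21). The medians of all genes were -0.04, -0.02 and -0.01. Of 10 listed cartilage genes 6 averaged under 1 CPM, so small differences could be missed. Mitochondrial transcripts took 1.63% to 2.57% of treated and 0.752% to 1.53% of untreated libraries at day 2. Alveolar type 1 markers had 0 of 6 called on any day, and leukocyte markers 1 of 5 lower at day 5 and 0 at days 2 and 7. Heart muscle markers had 1 of 5 lower at day 2, 1 higher at day 5 and 0 at day 7. Markers of ILC2 (group 2 innate lymphoid cells) had 1 of 6 higher on each day. The part of all these differences in the changes of the secretoglobins was not tested.

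Genes most like each secretoglobin were listed by the Pearson r of log2 CPM over the 35 libraries among 11625 genes of at least 5 CPM, as a description, since libraries share treatment, day and depth. Among the genes nearest Scgb1a1 were Atp2b2 (r = 0.917), Cyp2f2 (0.899), Lypd2 (0.887) and Slc4a5 (0.875). Scgb3a1 lay nearest Muc5b (0.905), Scgb3a2 (0.896), Lypd2 (0.883), Tff2 (0.873) and Bst2 (0.872), and Scgb3a2 nearest Chad (0.906), Scgb3a1 (0.896), Muc5b (0.891), Tff2 (0.847) and Lypd2 (0.841). In deviations from the group means, which leave out treatment, day and genotype, the first gene was Scgb3a2 for Scgb1a1 (0.733), Lypd2 for Scgb3a1 (0.861) and Bpifb1, a secreted host-defence protein, for Scgb3a2 (0.859). Over all libraries r was 0.896 between Scgb3a1 and Scgb3a2, 0.654 between Scgb1a1 and Scgb3a1, and 0.666 between Scgb1a1 and Scgb3a2.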

How the data were processed

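Whole-lung RNA of 35 mouse libraries was read from 1 table of counts. The authors deposited raw whole-number counts per gene, unnormalised by the file's values, and the submitters' processing notes name the build GRCm39 and DESeq2 without a role. No aligner, counter or annotation is named: each was not given in the sources used here. From these counts edgeR 4.0.16 (R 4.3.3) kept 20606 of 57186 genes by filterByExpr, scaled libraries by TMM and fitted 12 group means by robust quasi-likelihood (23 residual degrees of freedom), with two-sided F-tests of 25 contrasts adjusted by Benjamini-Hochberg over all genes of a contrast, called under 0.05. Log2 ratios of counts plus 0.5 within a library were compared by exact permutation within genotypes, over 9 tests. DESeq2 1.42.0 was an alternative, as were other scalings, no filter, the compared groups alone, the replicate number or library letter as a term, and each library left out. Tests were checked on simulated data. The members and lists were chosen with earlier results of these data known. Named genes of a list are the smallest p in each direction, the 2 of highest mean CPM and, where 5 or fewer are called, all called; some are left out of the text, and 1 gene of the club cell list is not reported here by name. The most alike pair of libraries within a group differed by a chi-square of 7.85 per degree of freedom, so none was counted as a duplicate. P-values rest on the spread between libraries, and depth of 10696690 to 21062713 counts sets the counting error.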

Additional observations from a re-analysis of the deposited data

Results flagged for a closer look

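The naphthalene effect differed between days for 2 of the 3 secretoglobins by a test of the difference itself, with edgeR and both genotypes averaged. From day 2 to day 5 it moved by 1.62 on the log2 scale for Scgb1a1 and by 3.00 for Scgb3a2. From day 2 to day 7 it moved by 1.97 for Scgb1a1 and by 3.08 for Scgb3a2. Both differences share the libraries of day 2, and the letter of the library name also differs between days.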

How the results depend on the processing

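DESeq2 size factors in edgeR and a constant of 5 in the ratios kept every direction and call of the secretoglobins. DESeq2 made 1 more call, Scgb3a2 at day 5 over both genotypes (0.74). A fit of the compared groups alone made the same call (0.74) and lost Scgb3a2 at day 2 in control mice (-1.88, adjusted p = 0.0752) and Scgb1a1 at day 7 in KO (-2.03) and control mice (-1.61). Library totals without TMM lost untreated Scgb3a1 of day 7 minus day 2 (1.16) and reversed its day 7 minus day 5 recovery (0.018). A term for the 3 letters that split groups lost the same untreated value (1.24) and reversed Scgb3a2 in untreated KO minus control mice of day 2 (-0.054).

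With no filter on low counts, edgeR's prior degrees of freedom became infinite, so that a gene's own spread no longer entered its test, and the quasi-dispersion of Scgb3a1 was 0.788 in place of 7.29. That fit called 19 more values, at log2 changes near those with the filter. For Scgb3a1 they were KO minus control in treated mice of days 2 (-2.01) and 7 (-1.55), in untreated mice of days 5 (-0.79) and 7 (-0.93) and in the mean (-0.80), the KO minus control difference of naphthalene effects on days 2 (-1.90) and 5 (1.36), the naphthalene effect at day 2 in control (-0.80) and day 5 in KO mice (0.98), recovery by day 5 (2.05) and day 7 (1.96), and untreated day 5 minus 2 (0.60) and day 7 minus 5 (0.74). For Scgb3a2 they were the naphthalene effect at day 5 in control mice (0.81), at day 7 in KO mice (0.88) and over both genotypes at days 5 (0.75) and 7 (0.82), and untreated day 7 minus 5 (0.48) and 7 minus 2 (0.56). Scgb3a2 in untreated KO minus control mice of day 2 reversed (-0.016).

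Counts over all genes moved with the setting. Over both genotypes day 2 had 2040 genes called and 1813 to 2682 under the alternatives, day 5 had 1476 and 354 (letter term) to 2696 (no filter), and day 7 had 77 and 44 (compared groups alone) to 209 (no filter). With 1 library left out they were 1296 to 2577, 556 to 4073 and 33 to 72. The day 5 naphthalene counts within 1 genotype were 272 in KO (24 to 635) and 492 in control mice (26 to 2118), at day 2 565 in KO mice (261 to 1056), and at day 7 15 in KO (10 to 161) and 8 in control mice (3 to 45). With 1 library left out these were 68 to 901, 23 to 3544, 216 to 1099, 4 to 15 and 3 to 5, and in control mice of day 2, with 774 genes, 468 to 784. Recovery from day 2 had 138 genes by day 5 (136 to 695, and 67 to 553 with 1 library left out) and 209 by day 7 (170 to 603, and 107 to 334), that from day 5 to 7 had 0 (up to 233, with no filter). Untreated day 5 minus 2 had 98 (0 to 676, and 21 to 441), day 7 minus 2 had 2835 (1430 to 3831, and 1720 to 3309), and day 7 minus 5 had 4460 (3376 to 5126, and 2600 to 5657). The genotype tests, at 0 genes, gave up to 503 with no filter and 86 in the compared groups alone, and in untreated mice of day 5 197 without control replicate 3.

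Replicate numbers were not taken to pair the libraries. In no comparison with 3 pairs did same-numbered deviations correlate at over 0.1 in every pair. Treated and untreated KO mice of day 7, with 2 pairs, reached 0.13 and 0.16. Untreated KO and control mice of day 7 ranged from 0.07 to 0.40. A replicate block lost untreated Scgb3a1 of day 7 minus day 2 (1.31). The paired sign-flip test of the ratios was exact, with 64 flips at days 2 and 5 and 32 at day 7. Its smallest p is 0.03125 with 64 flips and 0.0625 with 32, so day 7 could not fall under 0.05. Days 2 and 5 could after adjustment only if every ratio of both days stood at that smallest p. The test left none under 0.05, and with these limits it does not decide whether the ratios hold under pairing. Scgb3a2 over Scgb1a1 was at 1.38, 2.90 and 2.56 for days 2, 5 and 7. Scgb3a1 over Scgb1a1 was at 1.77, 2.39 and 2.29 (sign-flip adjusted p = 0.0938 for each value of both ratios). The block changed no other call of the secretoglobins. In KO mice alone, where the smallest exact p is 0.1, these ratios were 1.29, 2.89 and 2.87, and 1.14, 3.10 and 2.08, and in control mice alone 1.48, 2.90 and 2.37, and 2.39, 1.67 and 2.28. Scgb3a1 over Scgb3a2 reversed in KO mice alone at day 2 (-0.15) and day 5 (0.22).

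Leaving out each library in turn gave these ranges where a call or sign changed. Called values were Scgb3a1 at day 2 in KO mice (-3.48 to -2.30), Scgb1a1 at day 7 in KO (-2.33 to -1.72) and control mice (-1.88 to -1.37), untreated Scgb1a1 of day 7 minus 5 (0.54 to 0.78), untreated Scgb3a1 of day 7 minus 2 (1.04 to 1.56) and the day 2 ratio of Scgb3a1 to Scgb1a1 (1.48 to 2.09). Values not called were Scgb3a2 at day 5 over both genotypes (0.65 to 0.89), recovery of Scgb3a1 by day 5 (1.81 to 2.42) and from day 5 to 7 (-0.27 to 0.18), that of Scgb3a2 from day 5 to 7 (-0.075 to 0.17), Scgb3a1 at day 7 in KO mice (-0.48 to 0.45) and untreated Scgb3a2 of day 5 minus 2 (-0.072 to 0.23). KO minus control in untreated mice gave, at day 2, -0.31 to 0.080 for Scgb1a1, -0.52 to 0.29 for Scgb3a1 and -0.30 to 0.27 for Scgb3a2, and at day 5, -0.20 to 0.081 for Scgb1a1 and -0.24 to 0.22 for Scgb3a2. The same difference of naphthalene effects gave, at day 5, -0.30 to 0.0080 for Scgb1a1 and -0.44 to 0.038 for Scgb3a2, and at day 7, -0.080 to 0.32 for Scgb3a2. Other ranges kept sign and call. Limits are 2 or 3 mice a group, the letters confounded with treatment at days 2 and 5, and the spread of Scgb3a1 between mice.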
